A study of Mus musculus with 12 samples.

Results

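Haematopoietic stem and progenitor cells that carried the R878H change in Dnmt3a (RH) were compared with wild-type (WT) cells, both from mice given vehicle (VEH) for 1 month, so that the comparison gives the genotype difference without drug. It used 6 of the 12 bulk RNA sequencing libraries of the study, namely RH VEH 1, 2 and 3 and WT VEH 1, 2 and 3, chosen by their column names. The other 6 libraries came from mice given metformin (MET), the drug the study tested against the competitive advantage of the mutant cells. RH cells held 1 Dnmt3a allele of the fl-R878H line over a wild-type allele, and WT cells were Dnmt3a+/+. Both were C57BL/6 and both carried the Mx1-cre transgene, whose promoter answers to interferon in blood cells and in several other tissues. The cells were sorted from fresh bone marrow as Lin-ckit+ cells, after an in vivo competition experiment, and were not cultured. Whether cre had been induced, and whether RH and WT libraries shared recipient mice, is not given in the labels. Each treatment group had 2 animals by the labels, which do not say from which animal a library came. The p-values therefore reflect how much libraries of a group varied, and part of that variation may be technical.

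Dnmt3a is a de novo DNA methyltransferase: it places methyl groups on cytosines of CG dinucleotides that were not methylated before, while Dnmt1 copies existing marks after replication. In blood stem cells Dnmt3a restrains self-renewal, and changes at this arginine, which lies in the catalytic domain, are among the recurrent ones in clonal haematopoiesis and myeloid leukaemia. A point change of this kind alters the protein and need not alter the level of its messenger RNA.

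The position of the change is shown first, since it defines the mutant group. In the mouse coding sequence (GENCODE release M21, GRCm38, plus strand) codon 878 is CGC, an arginine codon, at positions 3907652 to 3907654 of chromosome 12, in exon 23. The reference stretch of 51 bases around it has the codon in capitals, and the mutant allele encodes histidine there (R878H, protein positions counted from the first methionine).
Dnmt3a, chr12:3907628-3907678: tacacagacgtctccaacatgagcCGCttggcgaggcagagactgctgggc
Dnmt3a transcripts did not separate the groups. They stood at 39.7, 43.5 and 58.2 CPM (TMM-scaled read counts relative to library size) in RH VEH 1, 2 and 3, against 41.8, 43.2 and 57.4 CPM in WT VEH 1, 2 and 3. Dnmt1 stood at 386 to 550 CPM in RH VEH and 491 to 576 CPM in WT VEH, and Dnmt3b at 23.2 to 32.9 CPM in RH VEH and 18.5 to 37.7 CPM in WT VEH. The receptor gene Kit, used in the sort, was present in every library, at 135 to 185 CPM in RH VEH and 118 to 199.9 CPM in WT VEH. The groups overlapped for all 4 of these genes, and no tested gene within 1 Mb of the Dnmt3a start reached an unadjusted p under 0.05 among 18.

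RH VEH 2 stood apart from the other 5 vehicle libraries before any gene was tested. Counts from the mitochondrial genome made up 3.85%, 40.8% and 2.36% of RH VEH 1, 2 and 3, against 1.57%, 2.69% and 2.15% of WT VEH 1, 2 and 3. Means were 15.7% ± 21.8 in RH VEH, against 2.13% ± 0.560 in WT VEH (SD, n = 3 each), a difference within the spread (exact permutation test, two-sided, p = 0.2, where 0.1 is the smallest possible), and without RH VEH 2 the difference was 0.969 percentage points in place of 13.5. RH VEH 2 also had the lowest total, 13359583 counts, against 17459826 to 19420425 in the other vehicle libraries, and 1 CPM stood for 8.37 reads in it and for 18.1 to 20.7 reads in the others. Along principal component 1 of the 6 libraries (51.9% of variance) it stood at −96.37, against −4.32 to 42.98 for the other 5. RH VEH 3 and WT VEH 3 lay next to each other on that axis, at 41.35 and 42.98. Removing the mitochondrial genes before scaling left 0 genes called (edgeR, 302 at an unadjusted p under 0.05), and the part of RH VEH 2 in each result is shown by values with and without it.

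No gene passed the threshold with all libraries. The edgeR quasi-likelihood test with Benjamini-Hochberg adjustment called 0 of 15003 genes (0%), with 0.240 as the smallest adjusted p, and 304 genes had an unadjusted p under 0.05, of which 167 were higher and 137 lower in RH VEH. DESeq2 called 3 of 15003 genes (0.02%), namely Slc15a2, Gapdh and the immunoglobulin segment Ighv1-5, and 389 had an unadjusted p under 0.05; limma voom with quality weights called 0, with 3502 at an unadjusted p under 0.05. Without RH VEH 2, edgeR called 2 genes, Slc15a2 and Gapdh, both higher (0.0133%), and 216 had an unadjusted p under 0.05. Libraries present in a smaller deposited table are called round 1 and the others round 2, and the main model has a term for the round. Of the vehicle libraries, round 1 holds RH VEH 1 and WT VEH 1 and 2, and round 2 holds RH VEH 2 and 3 and WT VEH 3. A value for a single round therefore rests on a single library of one genotype. With the column number as a replicate block in place of that term, 2 genes passed with all libraries, Slc15a2 and Ighv1-5.

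Most transcripts differed little between the genotypes, as judged by the size of the changes. TMM scaling itself sets the median log2 fold change near 0.00. The median log2 fold change of all tested genes, RH VEH over WT VEH, was 0.00, the median size of a change was 0.19 regardless of sign, and 631 genes were past 2-fold. Without RH VEH 2 these values were −0.01, 0.13 and 460, and 300 genes were past 2-fold with the same sign both ways. The sign was the same with and without RH VEH 2 for 78.6% of the tested genes. An unadjusted p under 0.05 with the same sign both ways was found for 124 genes, 53 higher and 71 lower in RH VEH.

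**Figure D1:**
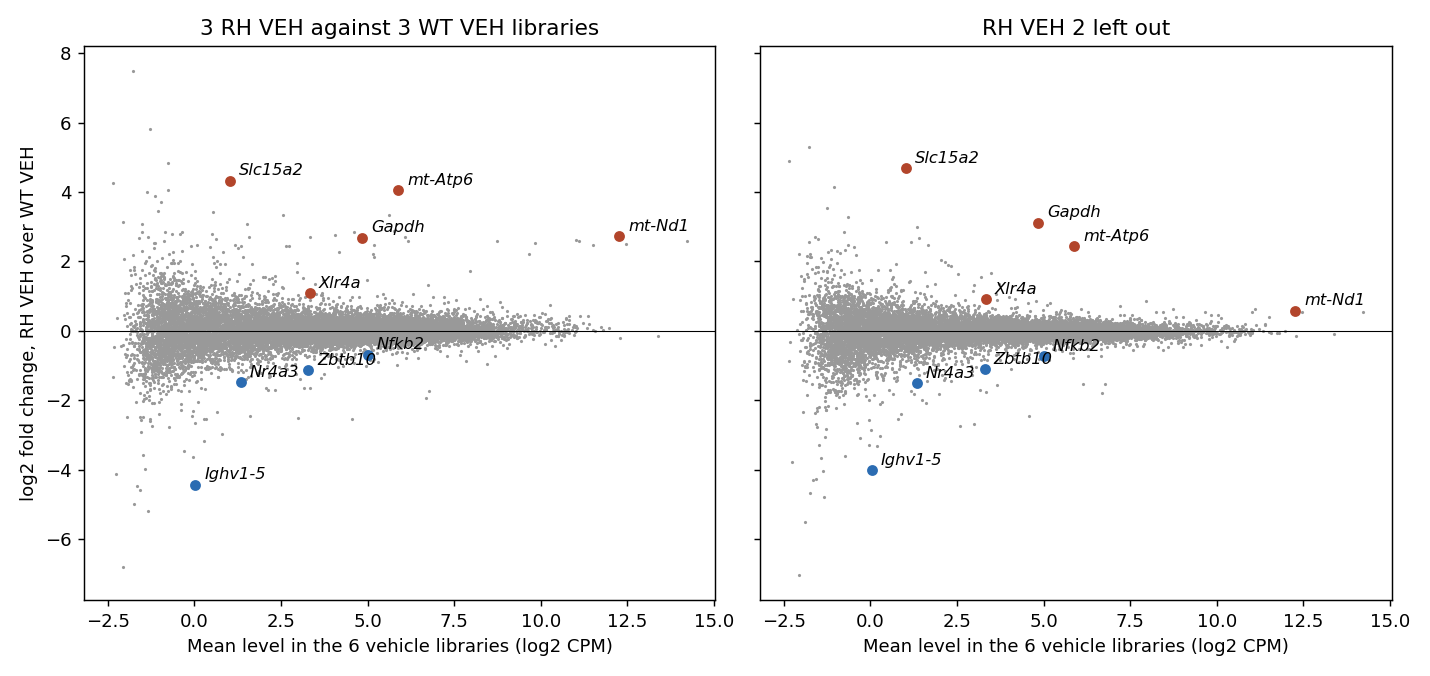
Log2 fold change of RH VEH over WT VEH for each of the 15003 tested genes (vertical axis) against its mean level in the 6 vehicle libraries (horizontal axis, log2 CPM), with all libraries on the left and with RH VEH 2 left out on the right. Slc15a2 and Gapdh lie above genes of similar level in both panels (4.32 and 2.68 on the left, 4.68 and 3.11 on the right), while mt-Nd1 lies at 2.73 on the left and 0.58 on the right.

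Slc15a2 encodes PEPT2, a proton-coupled transporter that takes up dipeptides and tripeptides, and it had the smallest p of all tested genes. It stood at 8.25, 4.30 and 16.7 CPM in RH VEH 1, 2 and 3, against 0.166, 0.488 and 0.581 CPM in WT VEH 1, 2 and 3. In counts these were 161, 36 and 339 reads in RH VEH, against 3, 10 and 12 reads in WT VEH. All RH VEH libraries were above all WT VEH libraries, and the RH VEH library with the lowest level was RH VEH 2. The log2 fold change was 4.32 ± 0.632 (SE, n = 3 per group), with an adjusted p of 0.240 (edgeR quasi-likelihood test). Without RH VEH 2 the gene passed, at 4.68 ± 0.475 with an adjusted p of 0.00196, and with the replicate block it passed at 4.52 with an adjusted p of 0.00252 (both edgeR). By round the log2 fold change was 4.59 in round 1 and 4.16 in round 2. Its sign there was bound to be positive, since all RH VEH libraries lay above all WT VEH libraries.

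The metformin libraries, which are separate samples, showed the same order for Slc15a2. The gene stood at 3.82, 6.74 and 12.9 CPM in RH MET 1, 2 and 3, against 0, 0 and 0.161 CPM in WT MET 1, 2 and 3. The genotype effect was thus positive under both treatments, and the difference of the effects, vehicle minus metformin, did not pass (−2.68 ± 1.14, edgeR quasi-likelihood test, adjusted p = 0.648). Of the other peptide transporter genes listed, Slc15a3 stood at 0.717 to 4.82 CPM in RH VEH and 2.54 to 8.51 CPM in WT VEH, and Slc15a4 at 19 to 24.8 CPM in RH VEH and 23.0 to 28.3 CPM in WT VEH. Both overlapped between the groups. Among 22 tested genes within 1 Mb of the Slc15a2 start on chromosome 16, 1 other gene, Fam162a, had an unadjusted p under 0.05 and the median log2 fold change was 0.02.

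Since Dnmt3a acts on CG dinucleotides, the Slc15a2 promoter is shown with them in capitals (RefSeq, GRCm38.p6, minus strand, from 250 bases before the start to 50 after it). It lies where the deposited table places the gene, at 36750177 to 36784962 of chromosome 16.
Slc15a2 promoter, chr16:36784913-36785212: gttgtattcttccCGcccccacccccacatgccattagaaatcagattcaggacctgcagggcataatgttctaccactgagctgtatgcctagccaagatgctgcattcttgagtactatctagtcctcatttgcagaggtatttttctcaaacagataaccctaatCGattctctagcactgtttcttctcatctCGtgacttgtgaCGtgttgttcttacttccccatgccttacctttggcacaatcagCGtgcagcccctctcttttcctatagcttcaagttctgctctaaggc
The window held 5 CG dinucleotides, against a median of 20 in the 10397 promoters of tested genes with an entry, of which 12.4% held as few or fewer. Methylation was not measured in these libraries, so this is a description of the sequence.

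Gapdh, the glycolytic enzyme that is often used as a reference gene, was high in 2 of the 3 RH VEH libraries. It stood at 172, 18.3 and 68.1 CPM in RH VEH 1, 2 and 3, against 13.2, 14.4 and 13.4 CPM in WT VEH 1, 2 and 3. All RH VEH values lay above all WT VEH values, but RH VEH 2 lay close to the WT VEH libraries. The log2 fold change was 2.68 ± 0.545 with all libraries and did not pass (edgeR quasi-likelihood test, adjusted p = 0.977); without RH VEH 2 it was 3.11 ± 0.265 and passed (adjusted p = 0.000667). In the metformin libraries Gapdh stood at 14.1 to 21.0 CPM in RH MET and 13.9 to 20.3 CPM in WT MET, where the groups overlapped.

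Many processed copies of Gapdh exist in the mouse genome, and the sources used here do not state how reads mapping to several places were counted, so its level is uncertain. Among 24 tested glycolysis genes, 8 had a positive sign and the median log2 fold change was −0.14 (−0.02 without RH VEH 2). Gapdh was the 1 member with an unadjusted p under 0.05. Hexokinase 2 (Hk2) stood at 15.9 to 23.8 CPM in RH VEH and 19.8 to 31.6 CPM in WT VEH, and lactate dehydrogenase B (Ldhb) at 2.27 to 4.05 CPM in RH VEH and 4.10 to 6.43 CPM in WT VEH. The Ldhb ranges did not overlap, with RH VEH the lower, which is the opposite sign to Gapdh.

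**Figure D2:**
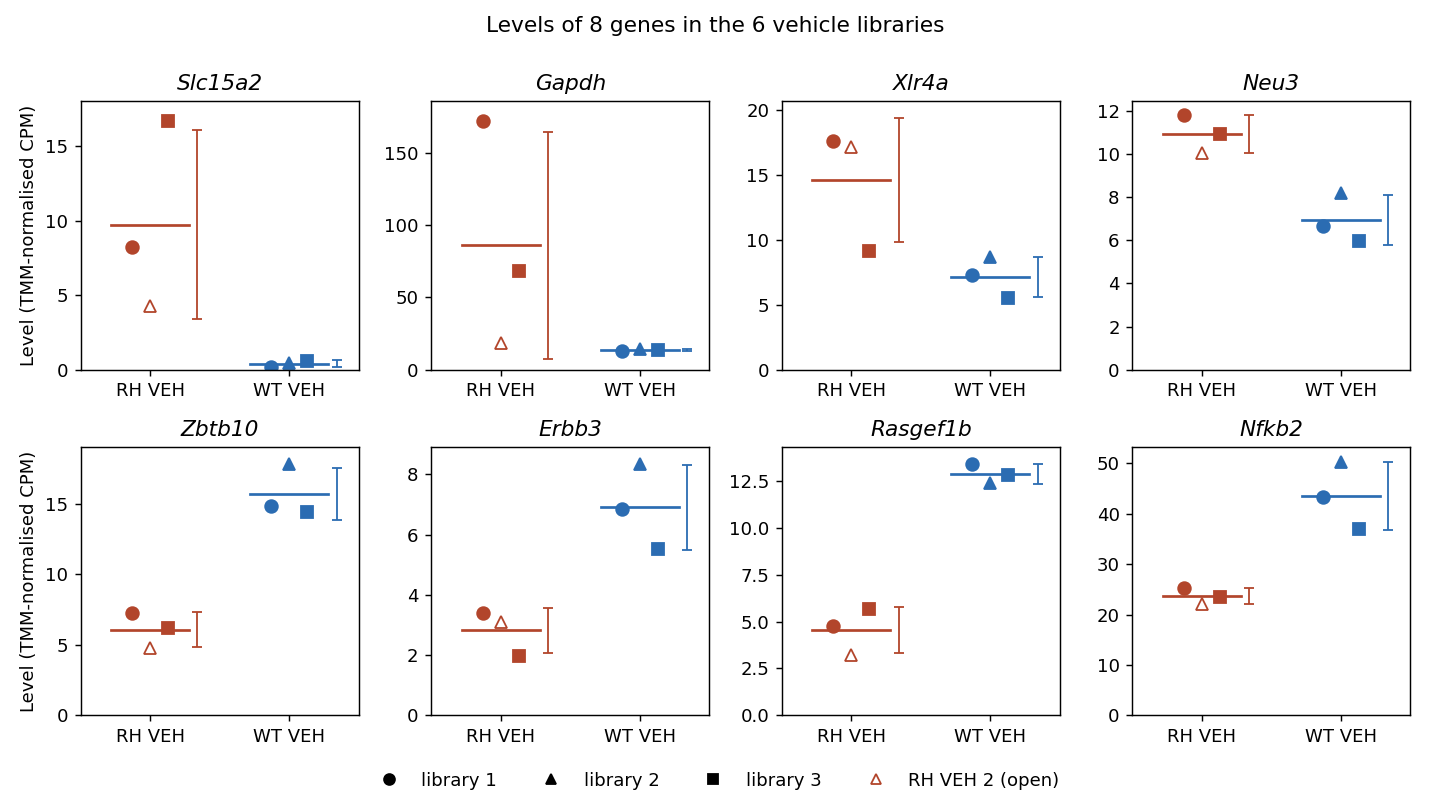
Levels (vertical axis, TMM-normalised CPM) of 8 genes in the 3 RH VEH libraries (left) and the 3 WT VEH libraries (right), with the mean as a horizontal line and the SD as the bar beside it; the open triangle is RH VEH 2. Slc15a2, Gapdh, Xlr4a and Neu3 lie higher in RH VEH, with RH VEH 2 the lowest for Slc15a2 (4.30) and Gapdh (18.3), and Zbtb10, Erbb3, Rasgef1b and Nfkb2 lie lower in RH VEH with no overlap.

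Genes next in order of p with a positive sign were described as values, since none passed (edgeR quasi-likelihood test, adjusted p = 0.977 for each gene named from here on unless stated). Of the 12 of smallest p, Slc15a2 and Gapdh included, 9 had all RH VEH libraries above all WT VEH libraries, where 407 of the 15003 tested genes (2.71%) were so placed; the genes were chosen by p, so nothing is read from this share. Xlr4a, an X-linked gene of the lymphoid-regulated family, stood at 17.6, 17.1 and 9.10 CPM in RH VEH 1, 2 and 3, against 7.28, 8.63 and 5.52 CPM in WT VEH 1, 2 and 3 (log2 fold change 1.07 ± 0.282; 0.91 without RH VEH 2). Neu3, a plasma membrane sialidase that trims gangliosides, stood at 11.8, 10.04 and 10.9 CPM in RH VEH, against 6.68, 8.19 and 5.95 CPM in WT VEH (0.68 ± 0.208; 0.72 without RH VEH 2). Snx31, a sorting nexin, stood at 7.28, 7.65 and 7.62 CPM in RH VEH, against 4.30, 3.90 and 4.65 CPM in WT VEH (0.82 ± 0.253; 0.80 without it). In these 3 genes the separation of the groups did not depend on RH VEH 2.

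In Mterf1b, a mitochondrial transcription termination factor, RH VEH 2 was the highest library. Mterf1b stood at 2.92, 7.41 and 2.90 CPM in RH VEH 1, 2 and 3, against 1.65, 1.27 and 1.16 CPM in WT VEH, and its log2 fold change was 1.63 ± 0.457, against 1.12 without RH VEH 2. Adam33, a membrane metalloprotease, stood at 37.9, 42.3 and 21.3 CPM in RH VEH, against 19.9, 16.1 and 15.2 CPM in WT VEH (0.96 ± 0.274; 0.79 without RH VEH 2). Pdia6, a disulfide isomerase of the endoplasmic reticulum, stood at 243, 256 and 219 CPM in RH VEH, against 180.2, 165 and 193 CPM in WT VEH (0.38 ± 0.119; 0.35 without it). No value of these 2 genes in RH VEH reached down to the WT VEH range. Immp1l, a subunit of the mitochondrial inner membrane peptidase, had a log2 fold change of 0.72 ± 0.220 (0.67 without RH VEH 2) and was also fully apart, whereas Tomm5 of the outer membrane import complex (0.72 ± 0.233; 0.53 without it) and the amino acid transporter gene Slc1a4 (0.76 ± 0.238; 0.58 without it) overlapped.

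A further set of genes had positive signs that were clearer without RH VEH 2. Unc5cl, a death-domain adaptor, stood at 7.999, 2.63 and 15.8 CPM in RH VEH 1, 2 and 3, against 2.65, 3.02 and 3.44 CPM in WT VEH 1, 2 and 3. RH VEH 2 lay inside the WT VEH range, and the other RH VEH libraries lay above it, as they did for 692 of the tested genes (4.61%). The log2 fold change of Unc5cl was 1.53 ± 0.503, or 1.90 without RH VEH 2 (adjusted p = 0.492 by edgeR; adjusted p = 0.00135 by DESeq2, where it was called). The same placing was seen in Psma8, a proteasome subunit best known from testis, at 11.2, 3.35 and 14.7 CPM in RH VEH, against 3.15, 3.95 and 4.89 CPM in WT VEH. Rap1gap, which switches off the small GTPase Rap1, stood at 3.28, 1.55 and 5.61 CPM in RH VEH, against 0.993, 1.37 and 2.08 CPM in WT VEH. Slc15a2, Gapdh, Unc5cl, Psma8 and Rap1gap, listed together after their values were seen, thus shared RH VEH 2 as the lowest RH VEH library.

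Genes with a negative sign were described in the same way. Of the 12 of smallest p, 11 had all RH VEH libraries below all WT VEH libraries, a placing found for 485 of the 15003 tested genes (3.23%), which is given as a description since p chose the genes. Zbtb10, a zinc finger repressor, stood at 7.28, 4.78 and 6.198 CPM in RH VEH 1, 2 and 3, against 14.8, 17.8 and 14.4 CPM in WT VEH 1, 2 and 3. Its log2 fold change was −1.14 ± 0.289, −1.11 without RH VEH 2 and −0.77 without WT VEH 3. Rasgef1b, a guanine nucleotide exchange factor for Ras-family GTPases, stood at 4.77, 3.23 and 5.66 CPM in RH VEH, against 13.4, 12.4 and 12.8 CPM in WT VEH (−1.25 ± 0.439; −1.16 without RH VEH 2). The gap between the groups in both genes was larger than the range within either group.

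Receptor and matrix genes were among them. Erbb3, a receptor of the epidermal growth factor family that binds neuregulins, stood at 3.38, 3.11 and 1.97 CPM in RH VEH 1, 2 and 3, against 6.84, 8.34 and 5.52 CPM in WT VEH 1, 2 and 3 (log2 fold change −1.26 ± 0.351; −1.35 without RH VEH 2). Sdc2, the heparan sulfate proteoglycan syndecan-2, stood at 2.46, 1.79 and 2.07 CPM in RH VEH, against 3.42, 5.12 and 4.21 CPM in WT VEH (−1.01 ± 0.300; −0.93 without it). Il1r2, the decoy receptor for interleukin 1, stood at 2.87, 0.597 and 4.48 CPM in RH VEH, against 7.23, 6.34 and 12.2 CPM in WT VEH (−1.66 ± 0.518; −1.27 without RH VEH 2). None of the 3 overlapped. Of 9 tested ErbB receptor and ligand genes 6 had a negative sign, with a median log2 fold change of −0.26 (−0.03 without RH VEH 2), and 1, Erbb3, had an unadjusted p under 0.05. Of 23 syndecan, glypican and heparan sulfate enzyme genes 17 had a negative sign, with a median of −0.13 (−0.05 without RH VEH 2), and 1, Sdc2, had an unadjusted p under 0.05.

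Further genes of the 12 had other roles. Pink1, the kinase that marks damaged mitochondria for removal, stood at 62.8, 45.3 and 49.5 CPM in RH VEH 1, 2 and 3, against 100.3, 64.1 and 77.3 CPM in WT VEH 1, 2 and 3 (log2 fold change −0.60 ± 0.194; −0.52 without RH VEH 2). Txnip, which binds thioredoxin and limits glucose uptake, stood at 197, 115 and 189 CPM in RH VEH, against 269.9, 305 and 233 CPM in WT VEH (−0.58 ± 0.196; −0.43 without it). Skil, a repressor of TGF-beta signalling, stood at 16.3, 7.89 and 14.0 CPM in RH VEH, against 28.9, 35.5 and 28.2 CPM in WT VEH (−1.02 ± 0.343; −0.89 without it). In all 3 genes every RH VEH value was below every WT VEH value, with RH VEH 2 the lowest. Litaf (−0.44 ± 0.143; −0.41 without RH VEH 2) and Serpina3f (−1.12 ± 0.367; −1.06 without it) were also apart, and the nuclear long non-coding RNA Malat1 (−0.45 ± 0.153; −0.47 without it) overlapped.

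Targets and subunits of NF-kB, the transcription factor family downstream of TNF and Toll-like receptors, lay lower in RH VEH both with and without RH VEH 2. Of 35 tested members 5 had a positive sign and the median log2 fold change was −0.24, and without RH VEH 2 it was 7 members and −0.24, against medians of 0.00 and −0.01 over all tested genes. All RH VEH libraries lay below all WT VEH libraries for 8 members (22.9% of the list, against 3.23% of tested genes). With RH VEH 1 and 3 alone it was 9 members (25.7%, against 834 tested genes or 5.56%). The median was −0.27 in round 1 and −0.37 in round 2. No member passed, and 3 had an unadjusted p under 0.05.

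Nfkb2, which encodes p100 and p52 of the non-canonical branch, stood at 25.3, 22.1 and 23.4 CPM in RH VEH 1, 2 and 3, against 43.3, 50.4 and 37.0 CPM in WT VEH 1, 2 and 3 (log2 fold change −0.69 ± 0.207; −0.73 without RH VEH 2). Its partner Relb stood at 3.64, 5.497 and 5.17 CPM in RH VEH, against 10.5, 6.58 and 6.63 CPM in WT VEH (−0.79 ± 0.338; −0.87 without it). Rel, the c-Rel subunit, stood at 12.15, 6.33 and 18.2 CPM in RH VEH, against 23.3, 25.4 and 34.1 CPM in WT VEH (−1.05 ± 0.407; −0.81 without RH VEH 2). These 3 subunit genes were fully apart, as were Tnfaip3, Csf1, Tnf, Cd83 and Nfkbid, some of which were named after their values were seen because they complete the count. Tnfaip3, which encodes the feedback inhibitor A20, stood at 441, 341 and 446 CPM in RH VEH, against 644.5, 729.5 and 608.5 CPM in WT VEH.

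The promoter of Nfkb2 is shown because subunit genes of this family are known to carry sites for the factor itself (RefSeq, GRCm38.p6, plus strand, 250 bases before the start to 50 after it). Capitals mark matches to the loose motif GGGNNNNNCC on either strand, some of which overlap.
Nfkb2 promoter, chr19:46304487-46304786: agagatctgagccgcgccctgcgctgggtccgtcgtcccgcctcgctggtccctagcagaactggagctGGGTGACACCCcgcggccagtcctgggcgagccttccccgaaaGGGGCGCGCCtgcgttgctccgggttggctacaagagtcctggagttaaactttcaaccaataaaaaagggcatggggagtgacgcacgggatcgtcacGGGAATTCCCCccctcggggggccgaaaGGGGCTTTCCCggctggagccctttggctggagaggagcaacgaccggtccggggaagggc
The motif is common: 66.8% of the 10397 promoters of tested genes held it, and 21 of the 26 list members with an entry (80.8%). A match is a description of the letters in this window and not a bound site.

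Immediate early genes respond to stimulation or handling of cells within minutes, and part of this list was lower in RH VEH. Of 35 tested members 11 had a positive sign, with a median of −0.13 (12 and −0.16 without RH VEH 2). The median was −0.01 in round 1 and −0.42 in round 2. All RH VEH libraries lay below all WT VEH libraries for 9 members (25.7% of the list, against 3.23% of tested genes), among them the orphan nuclear receptor gene Nr4a3 at 1.54, 1.08 and 1.28 CPM in RH VEH, against 6.29, 4.19 and 3.44 CPM in WT VEH (log2 fold change −1.49 ± 0.485; −1.52 without RH VEH 2). Nr4a1 stood at 174, 63.8 and 128 CPM in RH VEH, against 242, 218 and 192 CPM in WT VEH (−0.71 ± 0.257; −0.48 without RH VEH 2), and Csrnp1 had a log2 fold change of −0.65 ± 0.241 (−0.50 without it). The summed level of the list did not part the groups, at 10519 to 11744 CPM in RH VEH and 10210 to 13085 CPM in WT VEH. The 3 most abundant members, looked up after their values were seen, overlapped between the groups, with log2 fold changes of 0.06 for Jun, −0.15 for Fosb and 0.15 for Fos.

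**Figure D3:**
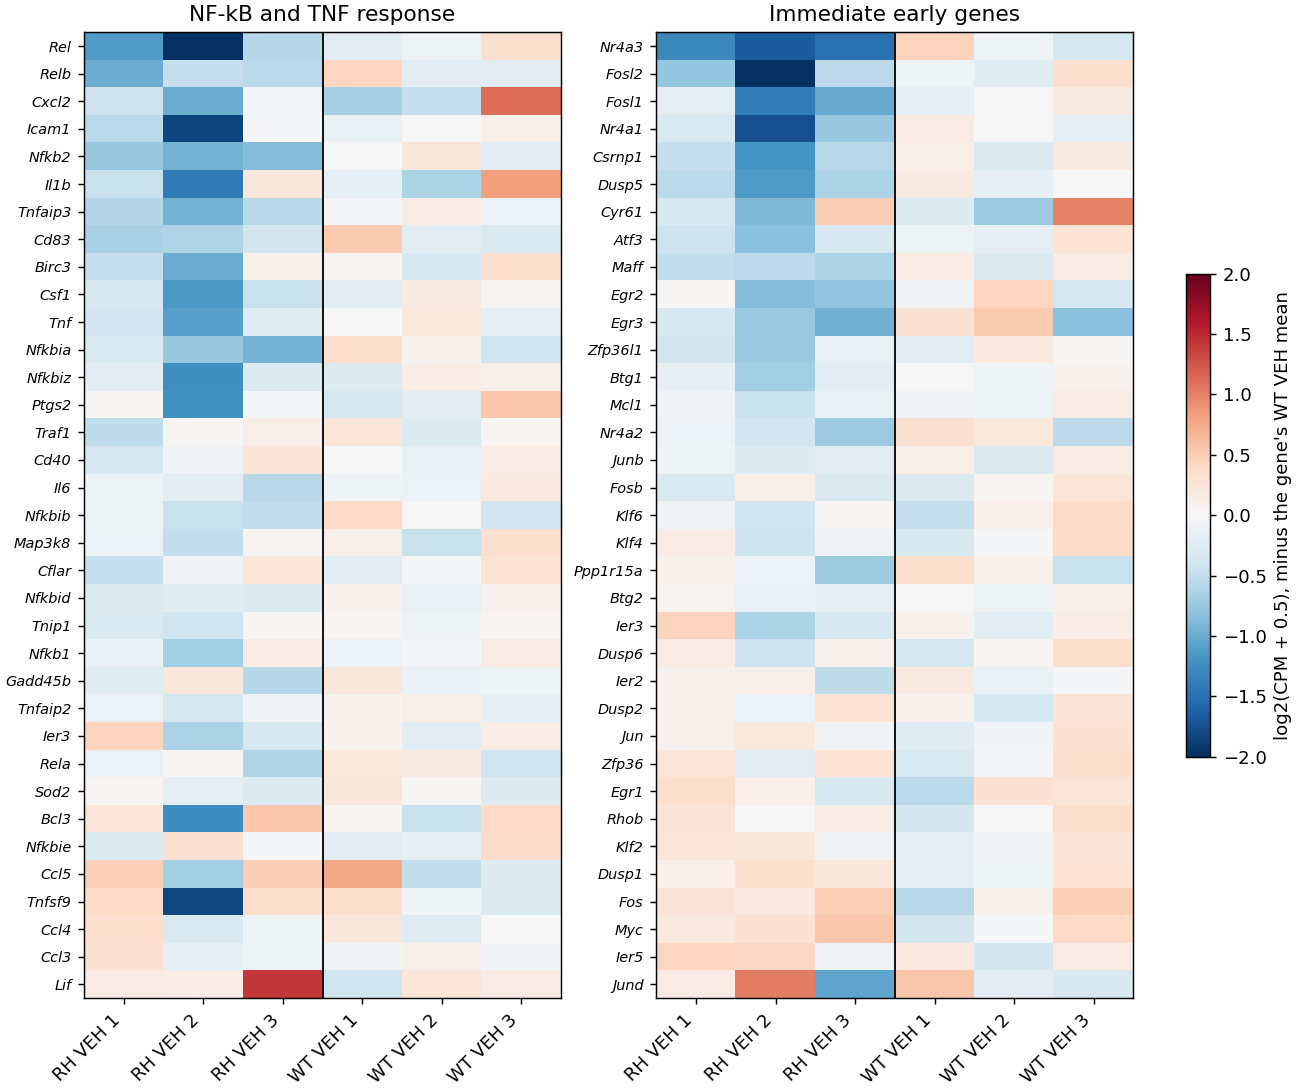
Level of each tested member of the NF-kB list (left) and the immediate early list (right) in the 6 vehicle libraries, as log2(CPM + 0.5) minus the gene's mean in WT VEH, with genes ordered by fold change and colours limited to 2 on either side. The upper rows are blue in all 3 RH VEH columns (Rel, Relb, Nfkb2, Nr4a3, Nr4a1, Csrnp1), RH VEH 2 holds the darkest blues, and the lower rows mix both colours.

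The interferon list had 14 of 44 members with a positive sign and a median of −0.19, or −0.04 without RH VEH 2. The chemokine gene Cxcl10 stood at 7.08, 4.06 and 3.79 CPM in RH VEH 1, 2 and 3, against 10.4, 11.6 and 8.56 CPM in WT VEH 1, 2 and 3 (log2 fold change −0.81 ± 0.305; −0.84 without RH VEH 2). Irf1, an interferon-induced transcription factor that NF-kB also regulates, stood at 37.8, 50.5 and 43.5 CPM in RH VEH, against 76.3, 70.6 and 52.9 CPM in WT VEH (−0.51 ± 0.197; −0.64 without RH VEH 2). These were the 2 of 44 interferon genes with all RH VEH libraries below all WT VEH libraries (4.55%, against 3.23% of tested genes), a share near that of all genes. Cholesterol synthesis genes had 6 of 25 members with a positive sign and a median of −0.17 (−0.15 without RH VEH 2). The ATF4 stress list, with a median of −0.00 with and −0.01 without RH VEH 2, and the NRF2 list (0.05 and 0.04) lay near the median of all genes.

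Of the lists examined, the mitochondrial genome had the largest median, and most of it came from RH VEH 2. All 12 tested messenger RNAs had a positive sign, with a median log2 fold change of 2.55, and 0.57 without RH VEH 2. mt-Nd1, a complex I subunit, stood at 4924, 85590 and 2449 CPM in RH VEH 1, 2 and 3, against 1883, 3221 and 2229 CPM in WT VEH 1, 2 and 3 (2.73 ± 1.716; 0.58 without RH VEH 2). RH VEH 2 was far above all others, RH VEH 1 was above each WT VEH library, and RH VEH 3 lay within the WT VEH range.

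One mitochondrial transcript departed from the rest in RH VEH 1. Set against the WT VEH mean, 11 of the 12 messenger RNAs were 1.68 to 2.498 times as high in RH VEH 1, 27.1 to 46.8 times in RH VEH 2 and 0.775 to 1.27 times in RH VEH 3. mt-Atp6, a subunit of ATP synthase, was 9.54 times as high in RH VEH 1, 90.1 times in RH VEH 2 and 1.06 times in RH VEH 3. It stood at 181, 1708 and 20.2 CPM in RH VEH 1, 2 and 3, against 18.7, 20.2 and 18.0 CPM in WT VEH 1, 2 and 3. Gm10925, which the deposited table gives as an unprocessed pseudogene and which was looked up after these values were seen, stood at 42.8, 1493 and 21.8 CPM in RH VEH, against 20.4, 24.1 and 20.6 CPM in WT VEH. Copies of mitochondrial sequence in the nuclear genome can share reads with these genes, so the single levels are uncertain.

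**Figure D4:**
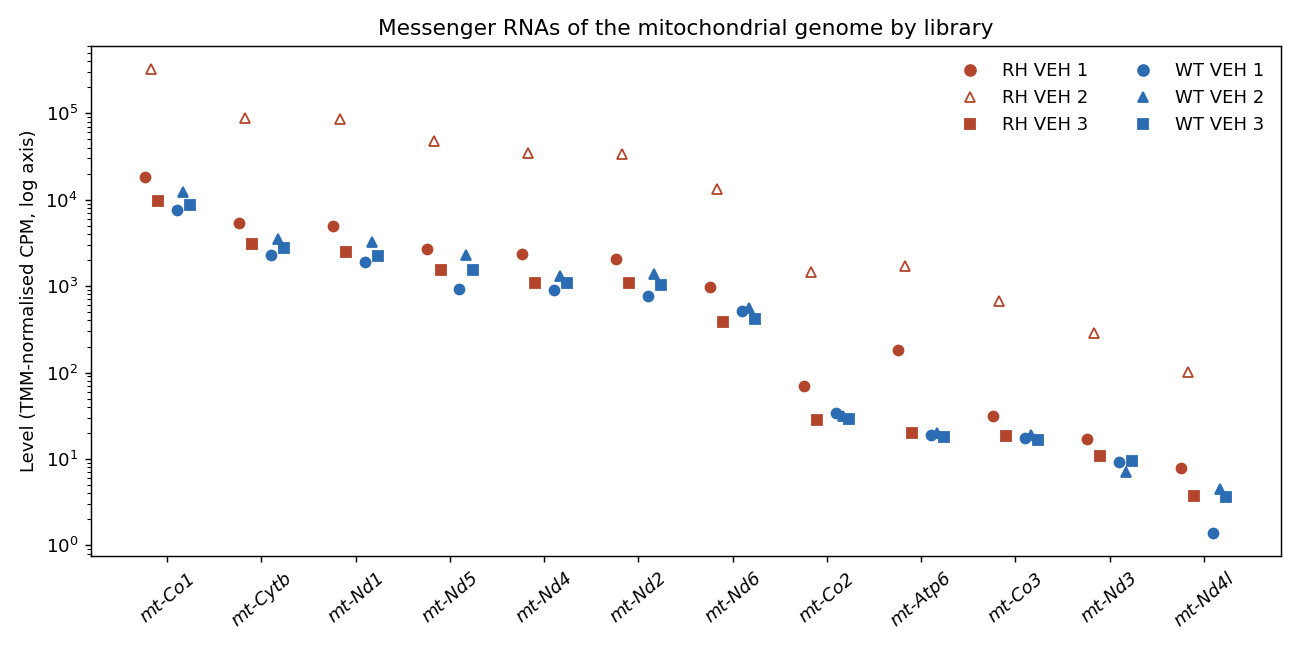
Levels (vertical axis, TMM-normalised CPM on a log axis) of the 12 tested messenger RNAs of the mitochondrial genome in RH VEH (red, left of each pair) and WT VEH (blue, right). The open triangles of RH VEH 2 lie 27.1 to 90.1 times above the WT VEH mean, and the RH VEH 1 circle of mt-Atp6 is the one that leaves the band of its library.

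Nuclear genes for the respiratory chain and for both ribosomes mostly had positive signs, with small medians that were lower without RH VEH 2. Of 36 nuclear subunits of respiratory complex I, 34 had a positive sign with a median log2 fold change of 0.27; without RH VEH 2 it was 31 and 0.12. For complexes II to V it was 33 of 40 with a median of 0.21 (31 and 0.10), for the mitochondrial ribosome 36 of 43 with 0.23 (31 and 0.07), and for the cytosolic ribosome 52 of 69 with 0.11 (38 and 0.01). Other mitochondrial enzyme lists had medians near that of all genes: the TCA cycle had 7 of 20 members positive with a median of −0.04 (10 and −0.01 without RH VEH 2), and fatty acid oxidation 13 of 23 with 0.03 (13 and 0.01). In none of the 4 respiratory chain and ribosome lists did a member have all RH VEH libraries above all WT VEH libraries. That placing was found for 2.71% of all tested genes. The medians of these 4 lists were positive in both rounds, and round 1 does not hold RH VEH 2. In rounds 1 and 2 they were 0.32 and 0.36 for complex I and 0.27 and 0.28 for complexes II to V. For the mitochondrial ribosome they were 0.18 and 0.29, and for the cytosolic ribosome 0.14 and 0.20. Ndufab1, the acyl carrier protein of complex I, stood at 79.3, 70.3 and 48.6 CPM in RH VEH 1, 2 and 3, against 63.5, 51.2 and 39.6 CPM in WT VEH 1, 2 and 3. In both groups library 3 was the lowest. The summed level of complex I genes was 3696, 3505 and 2079 CPM in RH VEH, against 3675, 2358 and 2108 CPM in WT VEH, and these ranges overlapped.

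Factors that maintain and express mitochondrial DNA included 4 of 29 members with all RH VEH libraries above all WT VEH libraries (13.8%, against 2.71% of tested genes), and 21 of 29 had a positive sign (median 0.17, or 0.09 without RH VEH 2). Fastkd5, which processes mitochondrial transcripts, stood at 9.54, 14.9 and 5.85 CPM in RH VEH 1, 2 and 3, against 5.02, 4.83 and 5.56 CPM in WT VEH 1, 2 and 3 (0.90 ± 0.326; 0.57 without RH VEH 2). Mterf1a, a close paralog of Mterf1b, stood at 6.31, 14.9 and 3.59 CPM in RH VEH, against 4.36, 3.37 and 3.15 CPM in WT VEH, and reads of the 2 paralogs may be split between them. RH VEH 2 was the highest library for both, and Mterf1a overlapped between the groups.

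**Figure D5:**
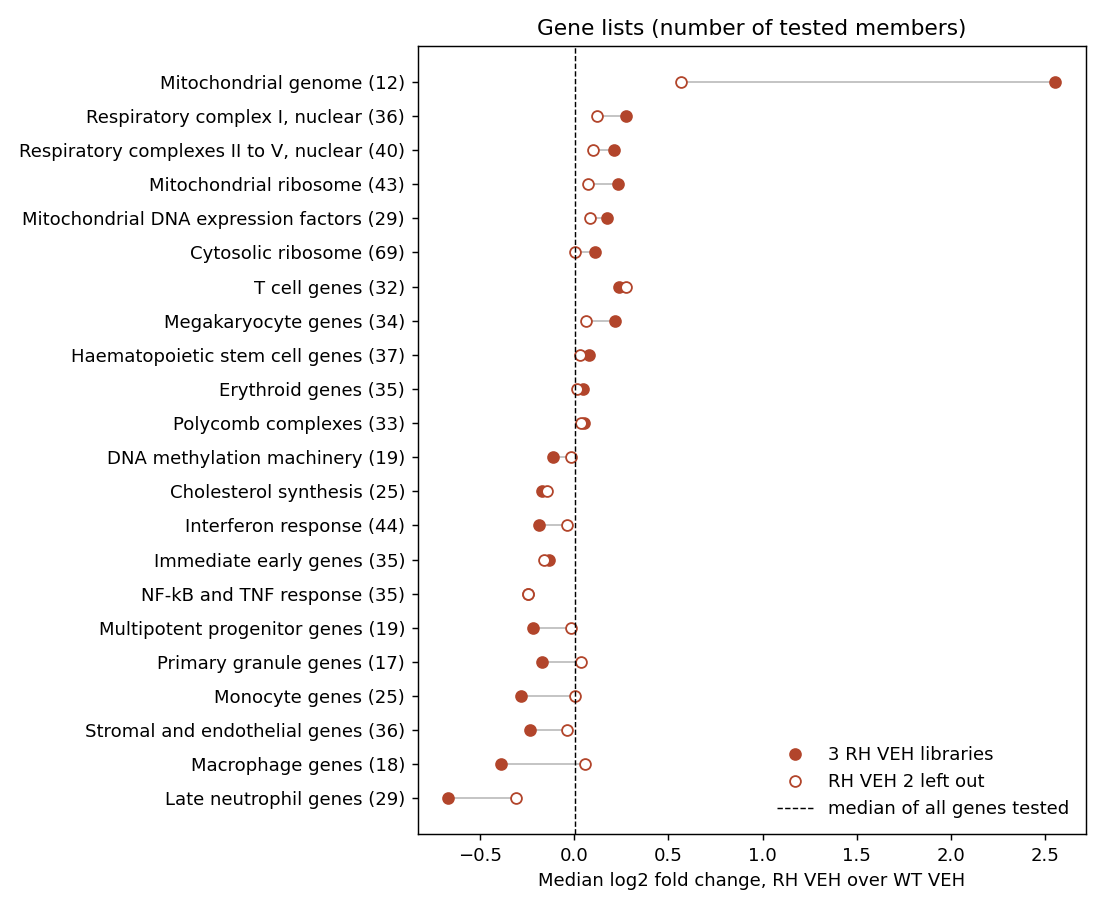
Median log2 fold change of RH VEH over WT VEH (horizontal axis) for 22 gene lists, with all libraries (filled) and with RH VEH 2 left out (open); the number of tested members is in parentheses and the dashed line is the median of all tested genes. The mitochondrial genome lies at 2.55 (filled) and 0.57 (open) and late neutrophil genes at −0.67 and −0.31, while the 2 symbols lie close together for the NF-kB, immediate early and T cell lists.

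Cell type markers moved with RH VEH 2 as well, and in bulk RNA fewer cells of a type and less RNA per cell cannot be told apart. Late neutrophil genes had 0 of 29 members with a positive sign and a median log2 fold change of −0.67, and 2 of 29 and −0.31 without RH VEH 2. Their summed level was 1891, 868 and 3318 CPM in RH VEH 1, 2 and 3, against 1777, 2242 and 5672 CPM in WT VEH 1, 2 and 3. The median was −0.04 in round 1 and −1.39 in round 2, and −0.09 without WT VEH 3. Olfm4, a granule protein of a neutrophil subset, stood at 1.69, 2.87 and 5.80 CPM in RH VEH, against 3.42, 4.54 and 15.3 CPM in WT VEH, with library 3 the highest of each group. The groups overlapped for all 29 genes.

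Several other lineage lists had medians nearer to that of all genes without RH VEH 2. Medians with and without it were −0.28 and 0.00 for monocyte genes, −0.17 and 0.04 for primary granule genes, −0.22 and −0.02 for multipotent progenitor genes, −0.24 and −0.04 for stromal and endothelial genes and −0.39 and 0.06 for macrophage genes. The macrophage median was also negative in round 1, which does not hold RH VEH 2, at −1.15, and was −0.29 in round 2. Mast cell, basophil and eosinophil genes went the other way, with medians of 0.01 with and 0.13 without RH VEH 2. RH VEH 2 had 813 CPM of monocyte genes, against 1440 and 1847 CPM in RH VEH 1 and 3 and 1223 to 2279 CPM in WT VEH. Megakaryocyte genes had a median of 0.22, or 0.06 without RH VEH 2, which was −0.29 in round 1 and 0.60 in round 2, so its sign turned between the rounds. They summed to 2520, 3910 and 2762 CPM in RH VEH, against 2761, 2997 and 2439 CPM in WT VEH. The platelet chemokine gene Pf4 stood at 210.3, 444 and 174 CPM in RH VEH, against 155, 165 and 105.5 CPM in WT VEH. Pf4 and Treml1 were the 2 of 34 megakaryocyte genes with all RH VEH libraries above all WT VEH libraries (5.88%, against 2.71% of tested genes).

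Stem cell and erythroid genes had medians close to that of all genes. Haematopoietic stem cell genes had 22 of 37 members with a positive sign and a median of 0.08 (0.03 without RH VEH 2), and erythroid genes 22 of 35 with 0.05 (0.02). Haematopoietic transcription factor genes had 30 of 46 members with a negative sign and a median of −0.13 (−0.03 without RH VEH 2). Of single markers, Ly6a, which encodes Sca-1, stood at 6.61 to 8.01 CPM in RH VEH and 5.27 to 8.42 CPM in WT VEH, and Slamf1, which encodes CD150, at 2.51 to 7.17 CPM in RH VEH and 2.61 to 4.44 CPM in WT VEH. Cd34 stood at 70.5, 53.3 and 141 CPM in RH VEH 1, 2 and 3, against 73.4, 81.0 and 158 CPM in WT VEH 1, 2 and 3. Library 3 had the highest Cd34 of each group, and no group separation was seen in any of the 3 genes.

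T cell genes kept a positive median without RH VEH 2, at low levels. Of 32 tested members 19 had a positive sign, with a median of 0.24, and 24 with 0.28 without RH VEH 2; it was 0.07 in round 1 and 0.32 in round 2. All RH VEH libraries lay above all WT VEH libraries for 5 members (15.6%, against 2.71% of tested genes), among them Themis. Themis, a thymocyte selection protein, stood at 0.359, 1.55 and 0.738 CPM in RH VEH, against 0.0552, 0.244 and 0.290 CPM in WT VEH. The whole list summed to 155, 186 and 205 CPM in RH VEH, against 164, 109 and 148 CPM in WT VEH, so that RH VEH 1 lay below WT VEH 1. The cells were sorted as negative for lineage markers, and the part of T cells left after the sort was not tested.

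Immunoglobulin V segments were often past 2-fold, in both directions, at low levels (median 3.72 CPM, against 17.5 CPM for all tested genes). Of 155 tested segments 73 were past 2-fold (47.1%, against 4.21% of all tested genes), 31 higher and 42 lower in RH VEH, and 14 had an unadjusted p under 0.05. Their summed level was 747, 837 and 1224 CPM in RH VEH 1, 2 and 3, against 982, 836 and 1405 CPM in WT VEH 1, 2 and 3. Ighv1-5, which DESeq2 called with a negative sign (adjusted p = 0.0421) and edgeR with the replicate block (adjusted p = 0.00984), stood at 0.308, 0 and 0.394 CPM in RH VEH, against 5.52, 0.634 and 11.5 CPM in WT VEH (log2 fold change −4.43 ± 1.07; −4.02 without RH VEH 2). Each segment is rearranged in single B cell clones, and near-identical segments can share reads, so single segments are uncertain.

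Groups of genes that DNA methylation is known to silence showed no common direction among the members tested. The lists held 56 imprinted genes and 47 germline and Xlr genes, and the rest had too few counts to be tested. Of 33 tested imprinted genes 18 had a positive sign with a median of 0.06 (0.02 without RH VEH 2). Of 15 tested germline and Xlr genes 9 had a positive sign with a median of 0.28 (0.10 without RH VEH 2). That germline and Xlr median was −0.09 in round 1 and 0.42 in round 2. Within the Xlr family the signs were opposed: Xlr4a was higher, as given above, while Xlr3a stood at 0.0513, 0 and 0.0492 CPM in RH VEH 1, 2 and 3, against 0.110, 1.02 and 1.98 CPM in WT VEH 1, 2 and 3. These levels of Xlr3a in RH VEH are at or below 1 read, and members of the family are near-identical, so both values are uncertain. Of 19 tested genes of the DNA methylation machinery 8 had a positive sign, with a median of −0.11 (−0.02 without RH VEH 2) and no member at an unadjusted p under 0.05. Polycomb genes (33 tested, median 0.05, or 0.04 without RH VEH 2) and Hox, Meis and Pbx genes (19 tested, −0.00, or 0.03 without it) were also near the median of all genes. Mat2a, the enzyme that makes the methyl donor S-adenosylmethionine, stood at 271, 308 and 211 CPM in RH VEH, against 186, 214 and 192 CPM in WT VEH (log2 fold change 0.45 ± 0.150; 0.31 without RH VEH 2), with RH VEH 3 inside the WT VEH range.

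The genotype effect under vehicle was compared with that under metformin in 1 model. No gene differed by edgeR (0 of 15003, with 932 at an unadjusted p under 0.05) or DESeq2 (0, with 1215), while limma voom with quality weights called 1946. Without RH VEH 2, edgeR called 1 gene, Gapdh, whose genotype effect was larger under vehicle than under metformin by 3.24 ± 0.361 on the log2 scale (adjusted p = 0.0132); with all libraries this difference was 2.92 ± 0.762 (adjusted p = 0.648). The 24 genes of smallest p described above shared their sign under metformin in 5 of 12 cases for those higher in RH VEH and in 10 of 12 for those lower. No such share over all tested genes is given here, so nothing is read from these counts. A library rich in mitochondrial counts lay in the WT group under metformin (WT MET 2, 33.3%) and in the RH group under vehicle (RH VEH 2, 40.8%). Of the metformin libraries, WT MET 2 was the highest for Mterf1b (5.38 CPM), Fastkd5 (10.8 CPM), Mterf1a (8.82 CPM) and Adam33 (34.4 CPM). Their log2 fold changes under metformin were −0.53, −0.16, −0.17 and −0.41, opposite in sign to those under vehicle. Pdia6 and Snx31, also highest in RH VEH 2 under vehicle, were not highest in WT MET 2 (215 and 3.45 CPM). The part of such libraries in these signs was not tested. Snx31 had log2 fold changes of 0.82 under vehicle and 0.78 under metformin, and Zbtb10 −1.14 and −1.14. Under metformin the groups overlapped for Zbtb10, at 8.73, 5.99 and 3.22 CPM in RH MET 1, 2 and 3, against 18.6, 8.42 and 6.93 CPM in WT MET 1, 2 and 3. Xlr4a, by contrast, had 1.07 under vehicle and −0.54 under metformin, a difference that did not pass. It stood at 8.23, 7.01 and 8.05 CPM in RH MET 1, 2 and 3, against 9.44, 13.2 and 10.3 CPM in WT MET 1, 2 and 3, with WT MET 2 the highest.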

How the data were processed

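Raw read counts per gene were deposited by the authors for 54532 gene IDs in 12 libraries, with no normalization; STAR 2.5, HTSeq 0.6.1 and mm10 are named per the submitters' processing notes, without settings, and the sources used here do not state how strand and multiple mapping were handled. Libraries carry their column numbers, some of which disagree with the labels. By their names, some columns could be tied to a group but not to a single sample. A smaller deposited count table repeats 6 columns unchanged (round 1: RH VEH 1, WT VEH 1 and 2 and 3 metformin libraries); the other 6 are called round 2. A further 2 columns of the smaller table match no sample and were not used. The RH VEH column of the smaller table that was tied to a sample is labelled RH VEH-2. RH VEH 2 here, of round 2, does not repeat that column, so it is not the sample labelled RH VEH-2.

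Genotypes were compared by the robust quasi-likelihood test of edgeR 4.0.16 (R 4.3.3) after filterByExpr and TMM scaling, over all 12 libraries with group and round terms, called at a Benjamini-Hochberg adjusted p under 0.05 over 15003 genes. DESeq2 1.42.0 and limma 3.58.1 were alternatives, and leave-out fits kept the same genes. Levels are CPM on TMM-scaled library sizes. The fits were also run on simulated counts with the same dispersion for all genes, no library rich in mitochondrial counts and no round effect. That run therefore does not bear on the part of RH VEH 2 in the calls. Column numbers were taken as pairs in the replicate block only. Deviations from the group means correlated at 0.22, 0.12 and 0.49 in the pairs of equal number, and 2 of these pairs also share a round. RH VEH 2 correlated more with WT VEH 1 (0.20) than with WT VEH 2 of its own number (0.12). The replicate block thus rests on column numbers alone, some of which disagree with the labels.

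The comparison, the 46 gene lists and the rule for named genes were chosen with earlier results of these data known. Named were genes called by edgeR with or without RH VEH 2 or by DESeq2; up to 12 per direction of smallest p, and up to 8 more by the p without RH VEH 2, of one sign in both fits and both rounds (mean log2 CPM of at least 1, no clones, pseudogenes, histones or receptor segments); up to 6 per direction of largest change without overlap; up to 3 per list by p; and 13 stem cell and methylation genes. Other names are said to be chosen after their values were seen. Near-identical genes may share reads.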

Additional observations from a re-analysis of the deposited data

Results flagged for a closer look

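The genotype effect on Gapdh differed between the treatments once RH VEH 2 was left out: it was larger under vehicle than under metformin by 3.24 ± 0.361 on the log2 scale (edgeR quasi-likelihood test of the interaction, adjusted p = 0.0132). The gene stood at 172 and 68.1 CPM in RH VEH 1 and 3, against 13.2 to 14.4 CPM in WT VEH, and at 14.1 to 21.0 CPM in RH MET, against 13.9 to 20.3 CPM in WT MET. RH VEH 2, at 18.3 CPM, lay at the level of the metformin libraries. With all libraries the difference did not pass (2.92 ± 0.762, adjusted p = 0.648).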

How the results depend on the processing

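The number of genes called was 0 with all libraries and stayed 0 in 12 of the 18 planned settings. It was 175 with no filter on low counts (27530 genes tested), 3 with DESeq2, 3 without both high mitochondrial libraries, 2 in round 1 alone, 2 with the replicate block, and 0 to 2 when each vehicle library was left out. Combinations added after seeing the data, each without RH VEH 2, gave 3 (DESeq2), 2 (limma voom) and 81 (no filter). The difference of the genotype effects was called for 431 genes with no filter, 1946 with limma voom, 3 in round 1 alone, 1 without both high mitochondrial libraries and 0 to 1 when a library was left out; the added combinations gave 1, 1 and 284. The cause of the high counts without a filter and with voom was not tested. The mitochondrial share differed by 0.969 to 20.2 percentage points over the leave-outs. Of 67 genes checked, 1 value turned sign: Retnlg, at 0.00072 in round 1 alone against −0.68 with all libraries. Many of these genes were named because their sign held without RH VEH 2 and in both rounds, so this count does not measure stability. Of all tested genes, 78.6% kept their sign without RH VEH 2. Slc15a2 lay between 3.93 and 4.71 and Gapdh between 1.69 and 3.63 over all settings. Removing mitochondrial genes before scaling turned the sign of 0 list medians, leaving out RH VEH 2 that of 11 of 45, and WT VEH 3 that of 14. The replicate block brought Slc15a2 and Ighv1-5 past the threshold and changed no other call. Depth limits genes below about 1 CPM, above all in RH VEH 2.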
